A study of Mus musculus with 2 samples.

Results

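The 9 mouse miRNA precursors described here are entries regarded as mouse-specific or doubtful, picked because their scaled counts differed strongly between hypercholesterolemic and normocholesterolemic ischemic muscle. They were miR-6236, miR-6240, miR-6238, miR-2137, miR-5126, miR-5103, miR-3968, miR-8114 and miR-1964. These are 9 of 1187 precursors listed in the deposited files. Small RNA was sequenced from hindlimb muscle 1 day after the femoral artery had been removed surgically, an injury that leaves the limb ischemic and was applied to both groups. The hypercholesterolemic library (HC) came from ApoE-/- mice, which lack the apolipoprotein that clears lipoprotein remnants and were kept on a high-fat diet. The normocholesterolemic library (NC) came from C57Bl/6 mice with the control genotype. The sources used here do not give the diet of the NC mice, the background strain of the HC mice, or the age, sex and number of mice behind either library. Genotype and diet cannot be told apart, and nor can the condition and the library, since each group held 1 library.

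A miRNA precursor is a hairpin of RNA that Drosha and Dicer cut to release a short mature strand. That strand guides Argonaute to messenger RNAs, mainly through its seed, bases 2 to 8 from its 5′ end. Widely conserved miRNAs usually have a long imperfect stem and a strand cut at a fixed place. Many late-numbered entries were named from few reads in deep sequencing, and for some such entries it is disputed whether the reads are products of Dicer or pieces of other RNAs. Conservation was not measured here.

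The mature sequences show how unlike each other these 9 are. Those from RefSeq (GRCm38.p6), written 5′ to 3′ with the seed in capitals, are given first for the 5 precursors that were higher in HC and then for the 4 that were lower.
mmu-miR-6236: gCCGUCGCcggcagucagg
mmu-miR-6240: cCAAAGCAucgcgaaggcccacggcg
mmu-miR-6238: uUAUUAGUcaguggaggaaaug
mmu-miR-2137: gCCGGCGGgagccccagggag
mmu-miR-5126: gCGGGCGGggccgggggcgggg
mmu-miR-5103: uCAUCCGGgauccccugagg
mmu-miR-3968: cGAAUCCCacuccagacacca
mmu-miR-8114: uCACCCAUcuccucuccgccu
mmu-miR-1964-5p: aGCUGGAGcacaaaagccggug
mmu-miR-1964-3p: cCGACUUCugggcuccggcuuu

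No seed occurred in 2 of the 9 precursors. The seed of miR-6240 was also that of miR-330-3p, and the other mature sequences shared theirs with none of the 1679 mature mouse miRNAs in the RefSeq table. The precursor of miR-330 had 161 counts in HC and 274 in NC, a log2 fold of -0.41 (-0.70 to -0.12), unlike the direction of the miR-6240 precursor. Counts per precursor are not split by mature strand, so the direction of miR-330-3p itself is unknown.

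The HC library held 31198050 counts over precursors and the NC library 43848576. Counts outside all precursors made up 55.9% of the listed counts in HC and 44.1% in NC. Reads listed under more than 1 precursor are repeated in these totals and shares, by an amount that was not measured. Levels are given as CPM, counts per 1e6 of a library size scaled by the trimmed mean of M-values (TMM), and folds are HC over NC. All 7 muscle precursors checked were present, from 55.6 CPM in HC and 59.3 CPM in NC for miR-206 to 141556 CPM in HC and 187306 CPM in NC for miR-486a. Among them miR-133a-1 had 65127 CPM in HC and 65383 CPM in NC, and the level of miR-1a-1 was 1826 CPM in HC, against 1320 CPM in NC. In contrast miR-122, a liver miRNA, was listed with 7 counts in HC against 9 in NC. Among blood cell miRNAs, the erythroid miR-144 had 125.4 CPM in HC and 81.8 CPM in NC, and miR-451a had 483.4 CPM in HC and 386.1 CPM in NC. Of the leukocyte miRNAs, miR-223 had 340.3 CPM in HC and 250.9 CPM in NC, miR-150 had 141.6 CPM in HC and 237.6 CPM in NC, and miR-142a had 1784 CPM in HC and 1771 CPM in NC. The endothelial miR-126a had 11407 CPM in HC and 11144 CPM in NC. Whether these or the counts outside precursors bear on the 9 precursors was not tested. Intervals are exact 95% intervals of counting error alone. With 1 library per group the spread between animals is unknown, no test was possible, and every difference describes these libraries.

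The 9 precursors made up a small share of both libraries. Together they took 21971 counts in HC, 0.0704% of precursor counts (Clopper-Pearson interval 0.0695 to 0.0714%). In NC they took 34503 counts, 0.0787% (0.0779 to 0.0795%). miR-5103 alone supplied 11227 of these in HC and 29456 in NC. The 5 higher in HC summed to 10106 counts in HC and 3349 in NC, and the 4 lower summed to 11865 in HC and 31154 in NC. In order of level, the most abundant of the 9 was miR-5103, at rank 91 of 1187 in HC and 68 in NC, and miR-6236 came next, at rank 108 in HC and 155 in NC. The lowest in HC was miR-1964 at rank 383, and the lowest in NC was miR-6238 at rank 364.

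**Figure D1:**
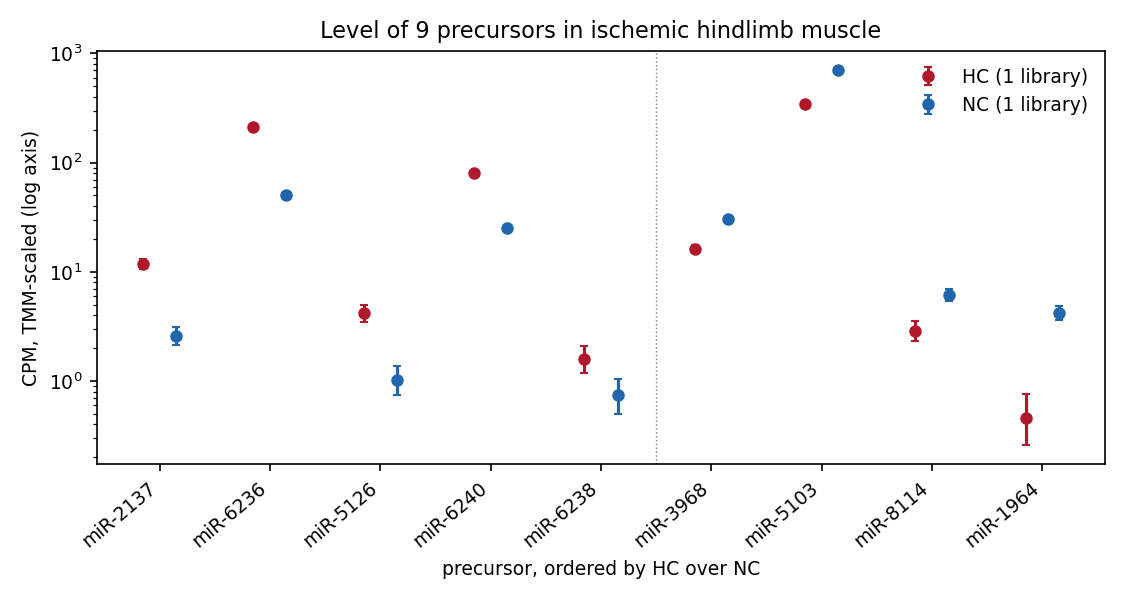
Level of each precursor in CPM (TMM-scaled, log axis) in the HC library (red, left of each pair) and the NC library (blue), with exact Poisson 95% bars that cover counting error only; where no bar shows, it is smaller than the point. The 5 precursors left of the dotted line were higher in HC and the 4 on its right were lower, from 11.7 against 2.60 CPM for miR-2137 to 0.459 against 4.23 CPM for miR-1964.

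Among the precursors higher in HC, 3 of 5 lie outside other annotated genes. miR-6236 (chromosome 9, 110281287 to 110281409 in mm10, plus strand) had 6885 counts in HC and 2104 in NC. This was 210.7 CPM in HC and 50.3 CPM in NC, or 4.19-fold higher (3.99 to 4.40), and the counting intervals of the libraries lay far apart. The nearest annotated gene was the long noncoding RNA Gm42775, more than 7 kb away on the other strand.

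miR-6240 (chromosome 5, 114851948 to 114852064, plus strand) had 2649 counts in HC and 1062 in NC, or 81.1 CPM in HC and 25.4 CPM in NC. It was 3.19-fold higher in HC (2.97 to 3.43). The coding gene 4930519G04Rik begins 1600 bases downstream on the same strand. Of the 10 mature sequences its is the longest at 26 bases, a length reached by 0.834% of the mature sequences in the table. The hairpin is shown because its computed fold was among the weakest; the mature strand is in capitals.
mmu-mir-6240 hairpin: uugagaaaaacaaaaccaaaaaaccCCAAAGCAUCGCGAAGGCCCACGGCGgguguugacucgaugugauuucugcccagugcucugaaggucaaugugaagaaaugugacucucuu

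miR-6238 (chromosome 7, 53891761 to 53891889, minus strand) had 52 counts in HC and 31 in NC, or 1.59 CPM in HC and 0.741 CPM in NC. No other annotated gene lies within 10 kb of it. Its fold of 2.15 has a wide interval of 1.35 to 3.47, so at this depth the size of the difference is poorly fixed. Its mature sequence is also the only one of the 10 with under 50% G and C, at 36.4%.

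The other precursors higher in HC lie inside genes. miR-2137 (chromosome X, 72992079 to 72992144, plus strand) sits in an intron of Zfp185, a gene of a LIM-domain protein tied to the actin cytoskeleton, on the same strand. It had 384 counts in HC and 109 in NC, or 11.7 CPM in HC and 2.60 CPM in NC. At 4.51-fold higher (3.64 to 5.63) it had the largest ratio of the 5. Its hairpin is short, at 66 bases, with the mature strand in capitals.
mmu-mir-2137 hairpin: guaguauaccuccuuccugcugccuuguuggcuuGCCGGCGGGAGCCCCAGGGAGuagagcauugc

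miR-5126 (chromosome 1, 84695839 to 84695915, plus strand) lies antisense to the first exon of Dner, which encodes a Notch-related transmembrane protein of neurons, within its 5′ UTR. It had 136 counts in HC and 43 in NC, or 4.16 CPM in HC and 1.03 CPM in NC, a 4.05-fold higher value (2.86 to 5.85). The mature sequence printed above consists of G and C alone. Its reverse complement is bases 311 to 332 of the coding transcript of Dner, and the longest same-strand run elsewhere among annotated transcripts was 20 of its 22 bases, in Nova2.

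The 4 precursors that were lower in HC all overlap other genes. miR-5103 (chromosome 1, 34433121 to 34433199, minus strand) lies in the single exon of the long noncoding RNA Gm37233 on the same strand. It had 11227 counts in HC and 29456 in NC, or 343.5 CPM in HC and 703.7 CPM in NC. It was 2.05-fold lower in HC, with an upper bound of 2.09 and a lower bound just above 2-fold. With plain library totals its log2 fold was -0.90, short of 2-fold. The mature sequence is bases 116 to 135 of the Gm37233 transcript, so its counts do not separate a Dicer product from pieces of that RNA. In the hairpin, the capitals mark a strand that lies near the 3′ end and is 90.0% paired in the computed fold.
mmu-mir-5103 hairpin: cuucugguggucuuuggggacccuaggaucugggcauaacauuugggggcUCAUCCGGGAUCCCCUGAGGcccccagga

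miR-3968 (chromosome 11, 115447961 to 115448060, minus strand) lies antisense to coding sequence in the last exon of Trim80, a gene of the tripartite-motif family. It had 529 counts in HC and 1263 in NC, or 16.2 CPM in HC and 30.2 CPM in NC. The difference, 1.86-fold lower (1.68 to 2.07), did not reach 2-fold. Its mature sequence is the reverse complement of bases 1633 to 1653 of the Trim80 transcript.

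miR-8114 (chromosome 1, 153899926 to 153900036, plus strand) spans the transcription start of Glul, the gene of glutamine synthetase, an enzyme that muscle uses to make glutamine. The annotated start of Glul is at 153899944. The mature strand lies wholly in the first exon, in the 5′ UTR, and equals bases 46 to 66 of the Glul transcript. On the other strand the hairpin overlaps the first exons of Teddm2 transcripts. miR-8114 had 94 counts in HC and 258 in NC, or 2.88 CPM in HC and 6.16 CPM in NC, a 2.14-fold lower value (1.69 to 2.74). Reads from the 5′ end of Glul messenger RNA would be listed under the same hairpin, and the messenger itself was not measured.

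miR-1964 (chromosome 7, 29773294 to 29773376, plus strand), in an intron of the zinc finger gene Zfp84 on the same strand, had the largest difference of all precursors that averaged 1 CPM or more. It had 15 counts in HC and 177 in NC, or 0.459 CPM in HC and 4.23 CPM in NC. That is 9.21-fold lower in HC, with a wide interval of 5.44 to 16.8 that follows from the 15 counts. It is the one precursor of the 9 with both a 5p and a 3p strand in the RefSeq table. Each of those strands, in capitals, is 86.4% paired in the fold.
mmu-mir-1964 hairpin: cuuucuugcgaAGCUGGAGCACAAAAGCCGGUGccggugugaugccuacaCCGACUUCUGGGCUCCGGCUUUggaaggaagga

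None of the 9 belongs to a cluster that could be followed as a unit. The nearest other precursor lay 132.4 kb away for miR-6240 and 133.1 kb for miR-1964, and farther for the rest. None overlaps another precursor. Some overlapping precursors on opposite strands had equal or nearly equal counts, so the deposited counting did not keep their reads apart. Of 15 overlapping precursor pairs on opposite strands with counts, 9 differed by less than 1% in both libraries. An example was miR-338 and miR-3065, with 6692 counts each in HC and 8904 each in NC. Precursors listed at identical coordinates, such as miR-30e and miR-30f, were not among the 15. The other 6 differed by 11.3 to 99.2%, for example miR-299a with 491 counts in HC and 779 in NC, and miR-299b with 8 in HC and 6 in NC. The hairpins of miR-299a and miR-299b differ in length, 63 and 49 bases. Unequal counts of such a pair therefore do not show that strands were kept apart. Whether reads of Dner, Trim80 and Teddm2 were listed under miR-5126, miR-3968 and miR-8114 on the opposite strand was not tested.

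The differences were set beside those of all precursors, although the 9 were chosen on this contrast, so that nothing can be read from their share. A mean of 10 CPM or more was reached by 4 of the 9. There 2 were at least 2-fold higher in HC with an interval that excluded equality, where 1.35% of 222 compared precursors were, and 1 was lower, against 0.901%. A mean of 1 CPM or more was reached by all 9: 5 were higher, where 2.39% of 335 were, and 3 lower, where 1.49% were. Of the 13 precursors past 2-fold at that level, 8 are among the 9 and 5 are not. The 5 others were miR-5121 (5.03-fold higher in HC) and miR-3535 (2.46-fold higher), miR-412 (2.15-fold higher), miR-92b (2.49-fold lower) and miR-483 (2.33-fold lower). Just past the 2-fold limit stood miR-5103, and just short of it the non-member miR-675 at 1.99-fold lower. miR-3968 ranked 17 of 335 by size, behind the non-members miR-690 (1.91-fold higher) and miR-504 (1.88-fold higher), and miR-5121 ranked 2, ahead of all but miR-1964. The non-members miR-92b, miR-3535, miR-483 and miR-412 also ranked ahead of miR-6238, miR-8114 and miR-5103, so the 9 are among the largest differences but are not the 9 largest.

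**Figure D2:**
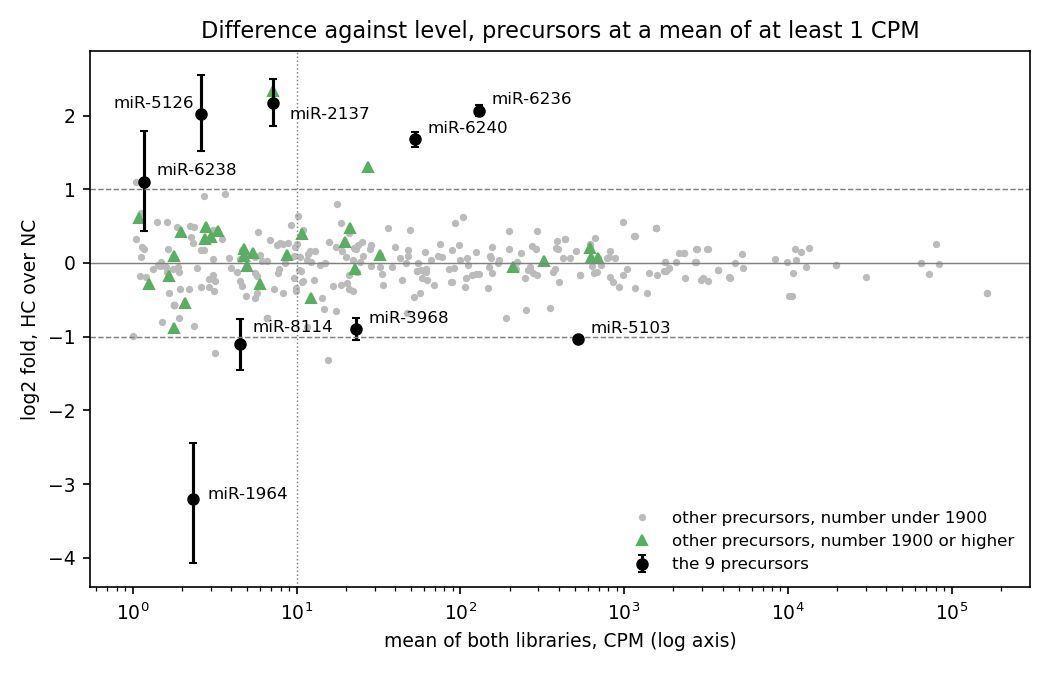
Log2 fold of HC over NC against the mean level (log axis) for the 335 precursors that averaged 1 CPM or more: the 9 precursors in black with exact 95% counting intervals, other precursors numbered 1900 or higher as green triangles, and those numbered below as grey points. Dashed lines mark 2-fold and the dotted line marks 10 CPM; most points lie between the dashed lines, and miR-1964 at -3.20 lies farthest from 0.

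For each member with a mean of 10 CPM or more, the non-member nearest in level had a smaller difference. The members were picked for large folds. Of 218 non-members that averaged 10 CPM or more, 1 was at least 2-fold higher in HC and 1 lower. A single neighbour was therefore likely to have a small fold in any case, and whether level bears on the differences was not tested. The non-member nearest in mean CPM to miR-6236 was miR-351, with a log2 fold of -0.15, against 2.07 for miR-6236. For miR-6240 (1.68) it was miR-141, at -0.46. For miR-5103 (-1.03) it was miR-196a-2, at 0.16. For miR-3968 (-0.90) it was miR-29b-2, at 0.19.

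Most other late-numbered precursors that reached a mean of 1 CPM stayed under 2-fold. Of 617 other precursors numbered 1900 or higher, 301 had no count in either library and 30 reached a mean of 1 CPM. Among those 30, 2 were at least 2-fold higher in HC (miR-3535 and miR-5121) and 0 lower, and the median log2 fold was 0.11. Over all 335 precursors at that level the median was -0.01, and of 296 non-members numbered under 1900, 1 was higher and 2 were lower. Past 2-fold in either direction were 6.67% of the 30 and 1.01% of the 296.

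The scaling moved the size of each difference. A change of library size shifts every log2 fold by the same amount, here between -0.55 and 0.13 over 6 other library sizes, and the 9 were picked for larger folds, so that the sign of their folds could not turn. Because the share of counts outside precursors was larger in HC, the members were also set against those counts alone, a choice made after seeing the data. Per 1e6 counts outside precursors, miR-6236 had 173.8 in HC and 60.7 in NC (2.86-fold higher), and miR-6240 had 66.9 in HC and 30.7 in NC (2.18-fold higher). miR-2137 and miR-5126 were 3.08-fold and 2.77-fold higher on that scale, whereas the difference in miR-6238 was not detectable on it, with a log2 fold of 0.55 and an interval of -0.12 to 1.24 that includes equality. The 4 lower precursors moved further from equality, with log2 folds of -1.59 for miR-5103, -1.45 for miR-3968, -1.65 for miR-8114 and -3.75 for miR-1964.

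**Figure D3:**
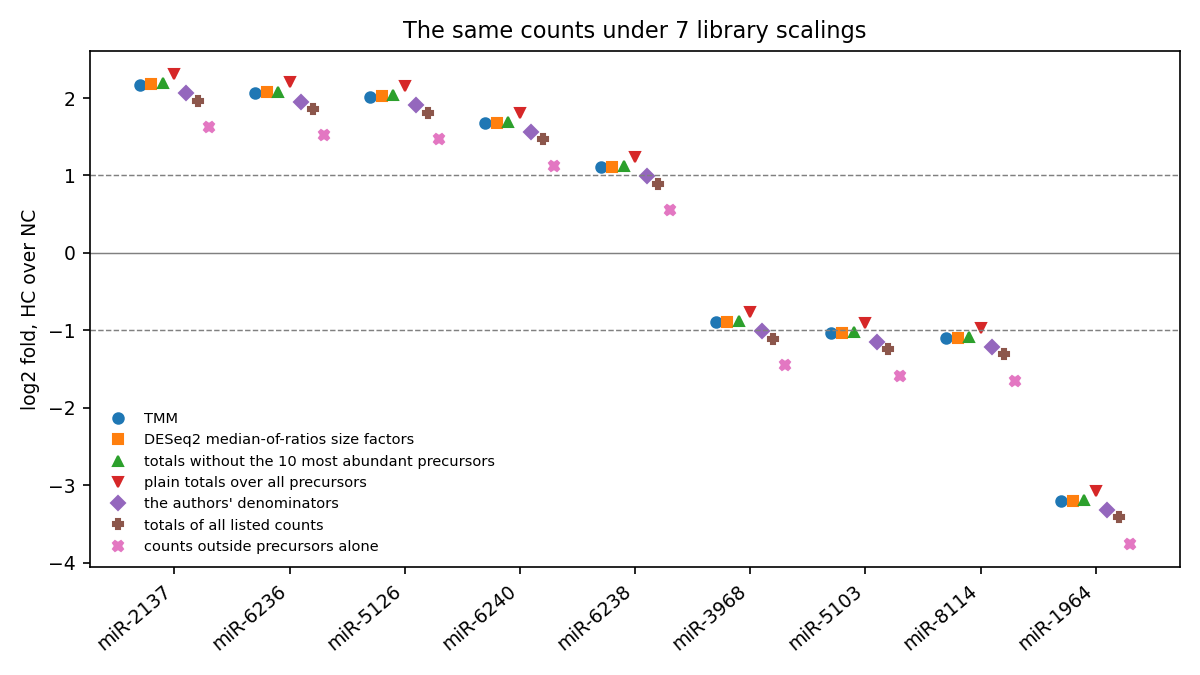
Log2 fold of HC over NC for each precursor under 7 library sizes, with dashed lines at 2-fold. Points carry no error bars. miR-6238 ranges from 0.55, where its counting interval includes 0, to 1.24, and miR-3968 from -1.45 to -0.76, and both lie on either side of 2-fold depending on the scaling.

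Base composition set several of the 9 apart from most miRNAs. The median mature sequence in the RefSeq table had 52.2% G and C, and 90% of them lay between 34.8% and 69.6%. miR-5126 at 100%, miR-2137 at 85.7% and miR-6236 at 78.9% lay above that range. miR-6240 at 69.2% and miR-6238 at 36.4%, both also higher in HC, lay within it. CG dinucleotides numbered 3 in miR-6236, 4 in miR-6240 and 4 in miR-5126, where 2.98% of mature sequences held at least 3. They numbered 2 in miR-2137 and 0 in miR-6238, and 1 or 2 in each mature sequence of the precursors lower in HC. The mature sequences of the 4 precursors lower in HC lay within the range, between 57.1% for miR-3968 and 65.0% for miR-5103. For the other precursors, 5 of 279 with a mature sequence and an average of 1 CPM or more passed 2-fold in either direction. Of 26 non-members that averaged 1 CPM or more and had a mature product at least as rich in G and C as miR-5103, 0 passed 2-fold in either direction, with a median log2 fold of 0.03 and a range of -0.89 to 0.68. Of 12 with at least 3 CG dinucleotides, 0 passed it, with a range of -0.41 to 0.54. The 9 were left out of these lists after being picked for large differences, although several of them meet the same limits. Few other precursors passed 2-fold in all. These counts of 0 therefore show no difference from the rest, and whether base composition bears on the differences was not tested.

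The computed folds also ranged widely. Hairpins were available in the RefSeq table for 8 of the 9, and 970 hairpins in all were folded at the listed coordinates. Precursors listed at identical coordinates, such as miR-30e and miR-30f, were folded with the same sequence. All 8 formed a single end loop, as did 94.3% of hairpins. miR-6238 and miR-6240 had the weakest folds, with minimum free energies of -0.21 kcal/mol per base each, weaker than 98.8% and 98.6% of hairpins counting ties. miR-5126 at -0.63 and miR-1964 at -0.56 kcal/mol per base were among the stronger, where the median was -0.41. miR-3968 had 56.0% of its bases paired and its mature strand 61.9%, both near the low end, against medians of 69.0% and 81.8%. miR-2137 at -0.37 kcal/mol per base was closer to the middle. miR-8114 at -0.345 kcal/mol per base lay on the weak side, with 61.3% of its bases and 71.4% of its mature strand paired. Precursors higher and lower in HC thus each included both strong and weak folds. By length, miR-6236, miR-6240, miR-6238 and miR-8114 spanned 123, 117, 129 and 111 bases, where 9.27% of all precursors reached 111 and the median was 81. Among 536 folded hairpins of other precursors numbered 1900 or higher, the median was 73 bases and the 95th percentile 124.25, which only miR-6238 exceeded.

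**Figure D4:**
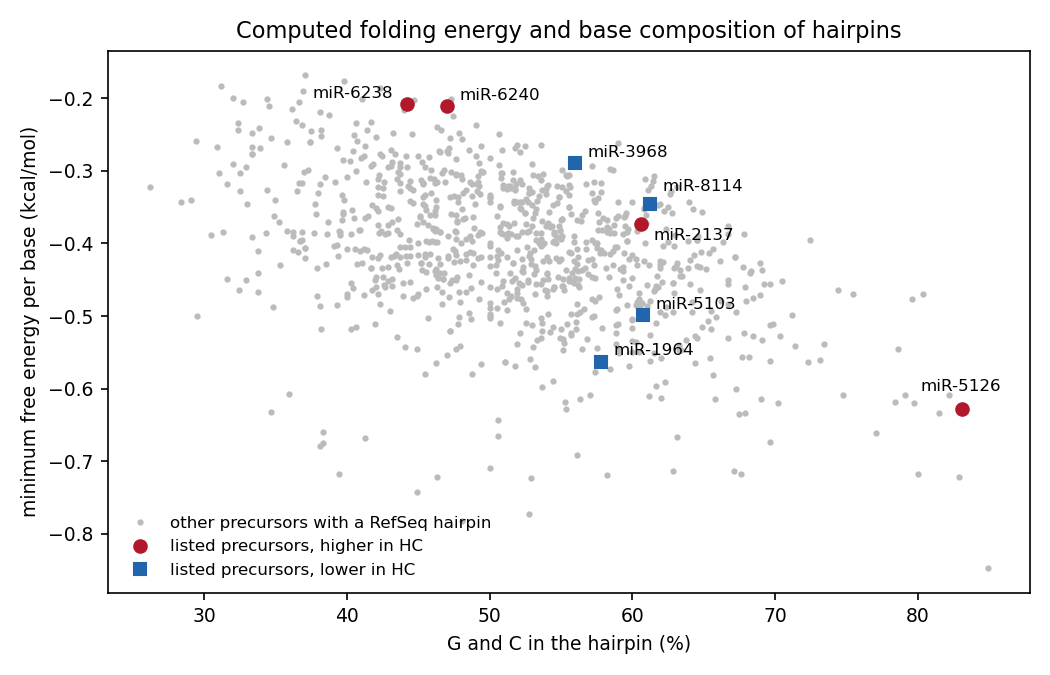
Minimum free energy per base from RNAfold against the percentage of G and C for 970 hairpins: grey points for other precursors, red circles for listed precursors higher in HC and blue squares for those lower. miR-6238 and miR-6240 lie at the weak upper edge, and miR-5126, with 83.1% G and C, lies at the far right.

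Matches of the mature sequences to other annotated transcripts followed their positions. All 141767 GENCODE M21 transcripts were searched on both strands. Full matches outside the miRNA's own entry were found for miR-5126, miR-5103, miR-3968 and miR-8114, each at the gene it overlaps. For miR-6236 the longest exact run in any other transcript was 14 of 19 bases, for miR-6240 15 of 26, for miR-6238 15 of 22, for miR-2137 15 of 21, and for miR-1964-5p and miR-1964-3p 16 of 22 each. The ribosomal RNA transcripts in that set were at most 1849 bases long, so the longer 28S ribosomal RNA was not searched. A missing match says only that these letters are not in the annotated transcripts.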

How the data were processed

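Small RNA libraries (Trizol and mirVana extraction, Illumina TruSeq small RNA preparation, per the labels' protocols) were analysed for 1 HC and 1 NC sample. Per the submitters' processing notes, the tools were HTSeq 0.5.4, TopHat2 2.0.10 and CASAVA 1.8.2, and the build was mm10. The sources used here do not give the adapter trimming or how reads with several alignments were treated. The deposited summary rows for ambiguous and non-unique alignments held 0 counts in both libraries. miR-486a and miR-486b, which overlap on opposite strands, had equal counts, 4626450 each in HC and 7839973 each in NC. Some reads therefore appear under more than 1 precursor, and precursor totals and shares include such repeats. The authors deposited whole-number read counts per precursor and 5 summary rows, which stayed out of library sizes. The deposited scaled signal, headed RPM, was used only for its denominators (27222821 in HC, 32252170 in NC). These lie below the precursor totals, the signal sums to 1146026 in HC and 1359554 in NC, and what the denominators count is unknown. Counts were scaled by TMM (edgeR 4.0.16, R 4.3.3; no edgeR test). DESeq2 1.42.0 gave an alternative scaling only. Folds used no pseudocount, and their intervals are exact conditional binomial (Clopper-Pearson) intervals. PCR reads are not independent molecules, so intervals cover counting error only. A precursor was called at a mean of at least 10 CPM, a fold of at least 2 and an interval that excluded equality.

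Annotation came from GENCODE M21 (GRCm38, the assembly of mm10), in which all 1187 coordinates matched a miRNA gene, and sequences from RefSeq GRCm38.p6: mature sequences for all 9 precursors and hairpins for 8. Hairpins were folded with RNAfold 2.7.2. The fold and interval procedure was tested on simulated Poisson counts. The 9 precursors and the lists were chosen with earlier results of these data known. Named were all 9, non-members past the size rule and the nearest non-member in level. Of genes, those overlapping a member were named or, where none overlapped, the nearest within 10 kb. Other genes within 10 kb were not named. miR-330, miR-675, miR-690, miR-504, miR-412, miR-483, miR-5121, miR-338, miR-3065, miR-299a, miR-299b, miR-30e, miR-30f and miR-486b, and Nova2, were named after their values were seen.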

Additional observations from a re-analysis of the deposited data

Results flagged for a closer look

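Counts that fell outside all precursors were 55.9% of all listed counts in HC, against 44.1% in NC. These counts entered no comparison of precursors and are named because their share in HC exceeded that in the control. Relative to the TMM-scaled library sizes, HC exceeded NC by a factor of 1.46 (log2 ratio 0.55). What these counts hold, and whether they bear on the 9 precursors, was not tested. Precursor counts include reads listed under more than 1 precursor, so both shares depend on such repeats.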

How the results depend on the processing

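Of the 54 log2 folds of the 9 precursors recomputed under 6 other library sizes, 37 stayed inside the counting interval of the main value and 17 left it, because a change of library size shifts every log2 fold by the same amount: 0.13 for plain totals, 0.01 for DESeq2 size factors, 0.02 without the 10 most abundant precursors, -0.11 for the authors' denominators, -0.21 for all listed counts and -0.55 for counts outside precursors alone. With that last setting the interval of miR-6238 (-0.12 to 1.24) includes equality. miR-3968 passed 2-fold in 3 of the 6 and miR-6238 in 3, miR-5103 and miR-8114 in 5, and the other 5 precursors in 6. Among precursors averaging 10 CPM or more, 3 passed 2-fold upward in HC and 2 downward, and 3 of these belong to the 9. With plain totals 1 was lower, with all listed counts 4, and with counts outside precursors alone 14. With a minimum of 1 CPM 8 were higher and 5 lower, with a minimum of 50 CPM 1 was lower, and with no filter 20 were higher and 15 lower. The number among the 9 was 8 at 1 CPM and 8 with no filter, since more low precursors then enter. It was 2 with plain totals and 4 with the authors' denominators. No paired analysis was possible because each group held 1 library, and no replicate could be left out. Depth limits miR-6238, miR-5126, miR-8114 and miR-1964 most, with at most 258 counts in a library; a count of 0 allows up to 0.0918 CPM in HC and 0.0717 CPM in NC.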
